A study of Homo sapiens with 4 samples.

Results

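The metallothioneins and their zinc response machinery were examined as 8 genes of the 19225 entries in the deposited expression table: the metallothioneins MT1E, MT1F, MT1G, MT1M, MT1X and MT2A, the zinc-sensing transcription factor MTF1 and the zinc exporter SLC30A1. The rule lists gene symbols and uses no threshold on a measured value, although earlier results of these data were known when the list was made. RNA-seq was performed in 4 libraries of 2 human cell lines that the labels name as HCC-LM3 and Huh-7. Both names are those of established hepatocellular carcinoma (HCC) lines, HCC-LM3 known for its high metastatic potential and Huh-7 a hepatoma line. Each line had 1 library labelled sh-WDR4-2, a hairpin RNA against WDR4, and 1 labelled sh-NC, the nonspecific control hairpin, both at 48 h. According to the study's methods the hairpins were carried by lentiviruses in stable cells, whereas the treatment labels speak of cells transduced with WDR4 for HCC-LM3 and transfected with siWDR4 for Huh-7. WDR4 encodes the partner subunit of the METTL1 tRNA m7G methyltransferase, and the study asked which transcripts its loss changes.

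Metallothioneins are small cysteine-rich proteins that bind zinc and copper and detoxify cadmium. When free zinc rises, MTF1 binds metal response elements in the promoters of metallothionein genes and of SLC30A1 and switches them on, so that zinc is bound by the former and pumped out of the cell by the latter. Liver cells are a classical site of this response, and MT2A and several MT1 genes also respond to glucocorticoids and stress.

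Libraries held 29807047 to 40572251 counts. In HCC-LM3 cells the targeted gene WDR4 was read 1009 times with the label sh-WDR4-2 and 1604 times with sh-NC, a log2 fold of −0.22 (95% counting interval −0.34 to −0.11), whereas Huh-7 cells had 990 and 1077 reads, with a log2 fold of −0.02 (−0.14 to 0.11). The targeted gene was thus slightly lower in HCC-LM3 cells and not detectably lower in Huh-7 cells, and the labels are given below as labels only, whatever direction is drawn from them. The hepatocyte genes ALB and TTR had 0 counts in all 4 libraries and AFP had at most 6, while HNF4A had 4 and 8 counts in HCC-LM3 cells and 1980 and 2033 in Huh-7 cells, and 7 of the 10 hepatocyte markers on the list had under 10 counts in every library. APOA1 and APOB had 2869 to 5407 counts, but their symbols were among those out of place described below. The names of the cell lines were taken from the labels, and with most hepatocyte markers near 0 their identity was not tested. The extraction text of the Huh-7 samples names retinas, and of the photoreceptor transcription factors CRX had 0 counts in every library. NRL had 8 and 26 counts in Huh-7 sh-WDR4-2 and sh-NC, and 8 and 53 in the corresponding HCC-LM3 libraries. Of the markers of other cell types, endothelial PECAM1, leukocyte PTPRC and CD3E and fibroblast COL1A2 had 0 counts in every library, whereas endothelial CDH5 had 53 to 467, VWF 2 to 66, macrophage CD68 374 to 955 and fibroblast COL1A1 4039 to 7687 counts, and DCN had 493 and 531 in HCC-LM3 and at most 4 in Huh-7 cells. Their part in the results below was not tested. Of all entries, 232 had a symbol at an unexpected place in the row order, which may be attached to the wrong row, and all 8 members stood at their place.

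The metallothionein genes are alike in coding sequence, so reads shared between them can bear on the counts below, to a degree that differs by gene. The first 30 coding bases of each are shown because they give the degree of likeness at a glance. They were read from GENCODE release 29 transcripts on chromosome 16, and capitals mark bases that differ from MT2A.
MT2A: atggatcccaactgctcctgcgccgccggt
MT1E: atggaCcccaactgctcTtgcgccAcTggt
MT1F: atggaCcccaactgctcctgcgccgcTggt
MT1G: atggaCcccaactgctcctgTgccgcTgCA
MT1M: atggaCcccaactgctcctgcAccAcTggt
MT1X: atggaCcccaactgctcctgcTcGCcTgTt
MT1F differed from MT2A at 2 of these 30 bases and MT1X at 6. Over the whole coding sequence, 183 bases in all members but MT1G with 186, pairs of members were 88.5% to 93.5% identical. Of all 50-base windows of the transcript, the share also present in a transcript of another gene was 3.59% for MT1F, 4.88% for MT2A, 5.34% for MT1E, 7.05% for MT1M, 20.2% for MT1G and 45.1% for MT1X. At 100 bases the share was 0 for all but MT1X, where 19.1% of windows were shared with transcripts of AC026461.1. MT1X counts can therefore hold reads of AC026461.1, and counts of MT1X and MT1G are the least certain of the family.

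Promoter sequences, from RefSeq on GRCh38, were in the table for 4 of the 8 members and were searched on both strands for the metal response element core, TGCACNC or TGCGCNC, within 250 bases before and 50 bases after the start. The core occurred 8 times in MT2A, 4 times in MT1X, 2 times in SLC30A1 and 0 times in MTF1. Of 35116 promoters in the table, 29.6% held at least 1, 8.60% at least 2, 0.601% at least 4 and 0.0740% at least 6. Matches of this core, the type of element that MTF1 binds, are shown for the 100 bases before the start. Those further before the start and those after it are not printed. Capitals mark the core, and the number is the distance of its first base from the start.
MT2A, −88, reverse strand: cagcgcggggcGTGTGCAggcagcgcccg
MT2A, −54: ggcggggctttTGCACTCgtcccggctct
MT2A, −8: gcttgccgcgcTGCACTCcaccacgcctc
MT1X, −78, reverse strand: tcagcaggggcGGGTGCAaggacgaggcg
MT1X, −53: ggcggggcctcTGCGCCCggccctcttcc
SLC30A1, −49, reverse strand: acgggggttccGAGTGCAaagcaaagttt
A match of these letters is a description of the sequence and not a measured binding site.

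MT2A was the main metallothionein of both cell lines. It had 3362 counts in HCC-LM3 sh-WDR4-2, 5342 in HCC-LM3 sh-NC, 4001 in Huh-7 sh-WDR4-2 and 4518 in Huh-7 sh-NC. After normalization by TMM these were 106, 124, 116 and 122 CPM, which are counts scaled to the library total multiplied by its TMM factor. The 4 libraries lay close together, and the cell lines overlapped. MT1E had 181 and 293 counts in HCC-LM3 sh-WDR4-2 and sh-NC and 1392 and 1402 in the corresponding Huh-7 libraries, or 5.72, 6.81, 40.4 and 37.9 CPM. Both Huh-7 libraries stood far above both HCC-LM3 libraries. MT1X had 379, 462, 629 and 665 counts in the same order, or 11.98, 10.7, 18.3 and 17.97 CPM, and again both Huh-7 libraries were higher.

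MT1F showed the opposite pattern at a low level. It had 38 counts in HCC-LM3 sh-WDR4-2 and 29 in HCC-LM3 sh-NC, or 1.20 and 0.674 CPM, and 0 counts in both Huh-7 libraries. With a floor of 3 counts in place of 0, MT1F was 8.32-fold higher in HCC-LM3 than in Huh-7 cells between the sh-NC libraries. Between those labelled sh-WDR4-2 it was 13.8-fold higher. These ratios take the HCC-LM3 counts as exact. The counting intervals reached down to a log2 fold of 2.66 for sh-NC and of 3.42 for sh-WDR4-2, both below these ratios. MT1F lay under the filter of a mean of 1 CPM over the 4 libraries and was not tested. MT1G and MT1M had 0 counts in all 4 libraries, which allows up to 0.0697 to 0.0948 CPM by library. MT1G, commonly reported as silenced in liver cancer, and MT1M, a copy between MT1E and MT1F in the cluster, were thus not detectable at this depth.

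**Figure D1:**
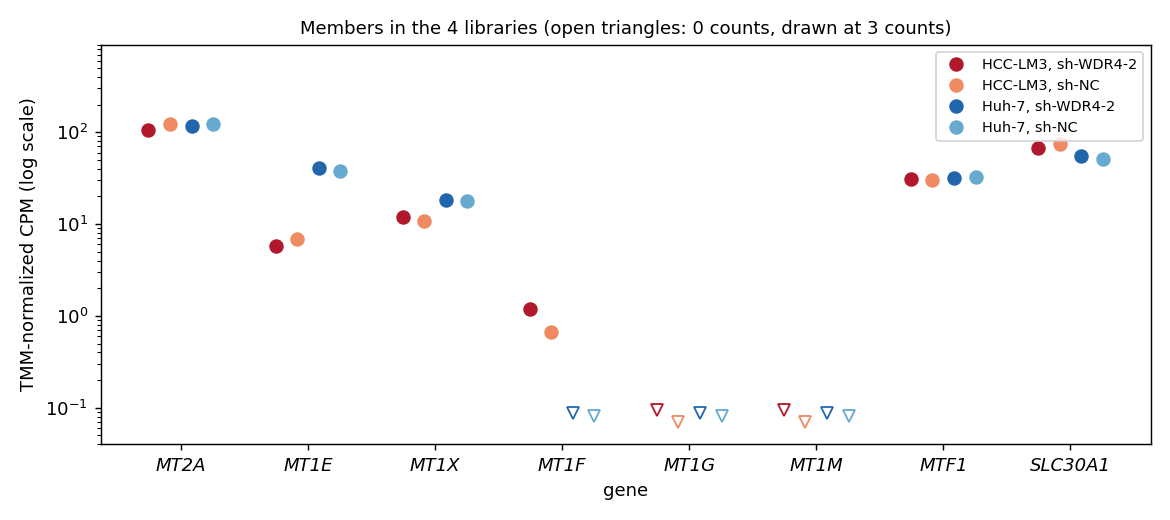
TMM-normalized CPM (log scale) of the 8 members in each of the 4 libraries, 1 point per library; open triangles stand for 0 counts and are drawn at the level of 3 counts. MT2A lies between 106 and 124 CPM in all libraries, MT1E is near 6 in HCC-LM3 and near 40 in Huh-7 cells, and MT1F is above 0 in HCC-LM3 libraries only.

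The regulator and the exporter were at moderate levels in every library. MTF1 had 970 and 1289 counts in HCC-LM3 cells labelled sh-WDR4-2 and sh-NC, and 1101 and 1197 in Huh-7 cells. Its normalized level spanned only 29.96 to 32.3 CPM over the 4 libraries, the narrowest relative range of any member detected in both lines. SLC30A1 had 2122, 3225, 1888 and 1884 counts, or 67.1, 75.0, 54.8 and 50.9 CPM. Both HCC-LM3 libraries were higher than both Huh-7 libraries.

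Levels can be set between genes only per length, for which the deposited FPKM were used, computed by the authors with transcript lengths of 506 bases for MT1E, 462 for MT1F, 404 for MT1X, 419 for MT2A, 7972 for MTF1 and 2018 for SLC30A1. In HCC-LM3 cells labelled sh-NC the order was MT2A at 314 FPKM, SLC30A1 at 39.4, MT1X at 28.2, MT1E at 14.3, MTF1 at 3.99 and MT1F at 1.55. In Huh-7 cells labelled sh-NC it was MT2A at 275 FPKM, MT1E at 70.7, MT1X at 42.0, SLC30A1 at 23.8 and MTF1 at 3.83. The order was the same in the libraries labelled sh-WDR4-2 of each line. MT1E thus stood next to MT2A in Huh-7 cells and below MT1X in HCC-LM3 cells. The rank of SLC30A1 rests on a length shorter than its GENCODE transcript of 5474 bases. With that length it would have 14.5 FPKM in HCC-LM3 sh-NC, below MT1X and close to MT1E, and 8.78 FPKM in Huh-7 sh-NC.

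Within a library, shares of the summed metallothionein counts do not depend on the scaling between libraries. MT2A took 84.9% (95% Wilson interval 83.7 to 86.0) and 87.2% (86.3 to 88.0) of the counts of the 6 members in HCC-LM3 cells labelled sh-WDR4-2 and sh-NC, and 66.4% (65.2 to 67.6) and 68.6% (67.5 to 69.7) in Huh-7 cells. MT1E took 4.57% (3.96 to 5.27) and 4.78% (4.28 to 5.35) in HCC-LM3 cells and 23.1% (22.1 to 24.2) and 21.3% (20.3 to 22.3) in Huh-7 cells. For MT2A and MT1E the intervals of the cell lines lay far apart and those of the labels within a line were close or overlapped. MT1X took 9.57% (8.69 to 10.5) and 7.54% (6.91 to 8.23) in HCC-LM3 and 10.4% (9.70 to 11.2) and 10.1% (9.39 to 10.8) in Huh-7 cells. Its HCC-LM3 intervals lay apart, and that of HCC-LM3 sh-WDR4-2 overlapped those of Huh-7 cells. These Wilson intervals cover counting error only.

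**Figure D2:**
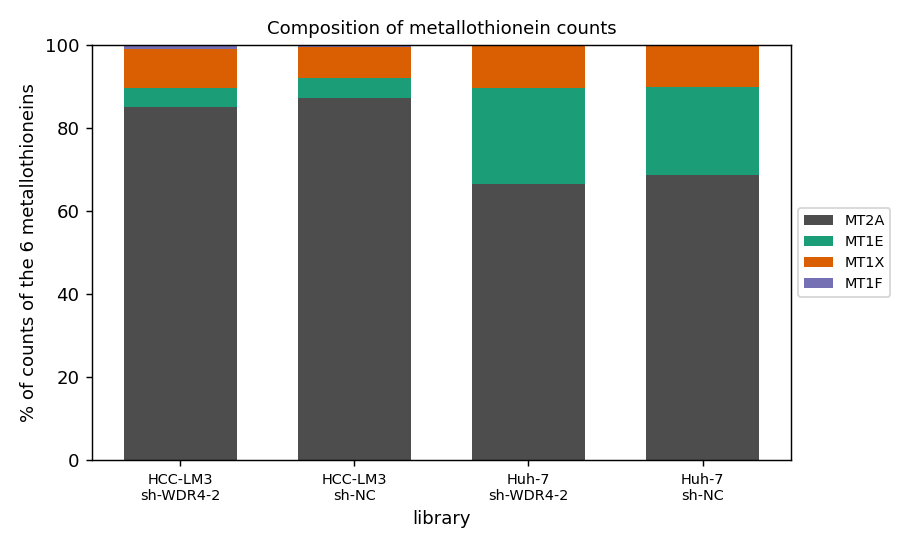
Share, in percent, of the counts of the 6 metallothioneins that fell on each gene in each library; MT1G and MT1M had 0 counts. MT2A makes up 84.9% and 87.2% in HCC-LM3 cells and 66.4% and 68.6% in Huh-7 cells, and the MT1E share is larger in Huh-7 cells.

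All 6 metallothioneins lie within 76.0 kb of chromosome 16 (GRCh38, GENCODE release 29, 56608199 to 56684196), on the plus strand but for MT1G. MT2A (56608199 to 56609497) and MT1E (56625475 to 56627112) lie toward its start, MT1M (56632233 to 56633986), MT1F (56657694 to 56660698) and MT1G (56666731 to 56668065) follow, and MT1X (56682424 to 56684196) closes it. In HCC-LM3 cells the members at 0, MT1M and MT1G, lie on either side of MT1F, and in Huh-7 cells MT1M, MT1F and MT1G, all at 0, lie between MT1E and MT1X. Of 12 metallothionein entries in the table, 4 had more than 3 counts in any library and 7 had 0 in all. Besides the members, MT1A had 1 count in a single Huh-7 library, and MT1B, MT1H, MT1HL1, MT3 (the brain form) and MT4 (the form of stratified epithelia) had 0 counts throughout. MTF1 (chromosome 1, 37809567 to 37859620) and SLC30A1 (chromosome 1, 211571568 to 211578742) lie elsewhere, both on the minus strand.

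**Figure D3:**
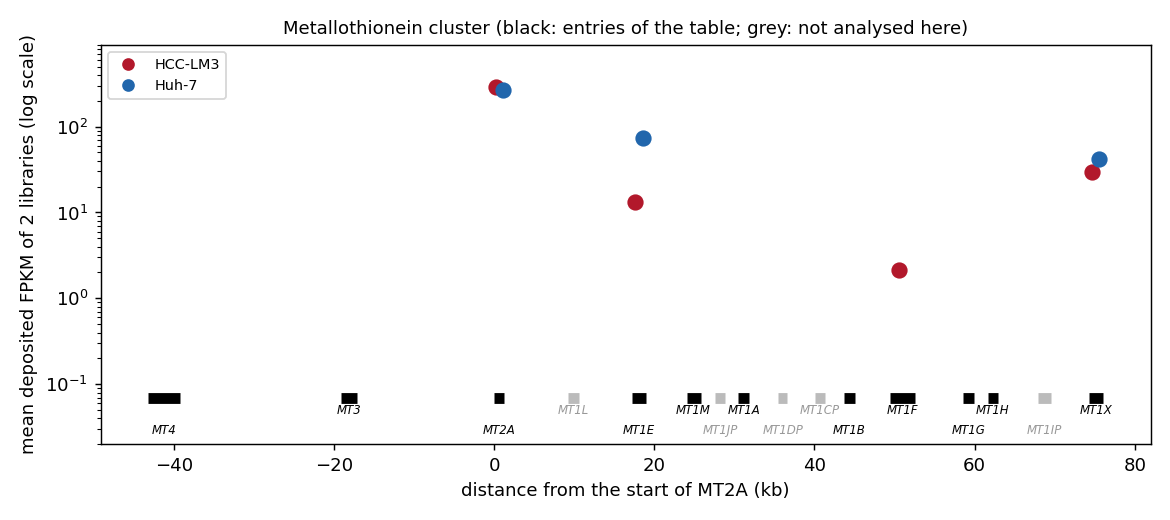
Metallothionein genes of chromosome 16 by distance from the start of MT2A (kb), with the mean deposited FPKM of the 2 libraries of each cell line (log scale) above each gene. Points, 1 per cell line, stand above MT2A, MT1E and MT1X in both lines and above MT1F for HCC-LM3 cells, with genes at or near 0, drawn without a point, between them; grey genes were not analysed here.

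HCC-LM3 and Huh-7 cells differed in the levels of MT1E and MT1X and not detectably in that of MT2A. MT1F, with counts in HCC-LM3 cells only, was not tested. The edgeR quasi-likelihood test across all genes, with the shRNA label as a block, compared 2 libraries per cell line. These carry different labels and are not known to be separate cultures. The lone residual degree of freedom measures how far the label fold of a gene differs between the lines. As edgeR draws that spread toward the spread of other genes, the p-values do not measure variation between replicate cultures. Of the 5 members tested, 3 passed an adjusted p of 0.05, 2 of them lower and 1 higher in HCC-LM3 cells. The same threshold was passed by 77.4% of the 12712 genes tested, 37.1% lower and 40.3% higher in HCC-LM3 cells, so the share of members called was no larger than that of genes at large. MT1E was 6.21-fold lower in HCC-LM3 cells, a log2 difference of −2.63 (SE 0.11, adjusted p = 8.9e-10), and 9.86% of genes tested differed at least as much in either direction. In all, 27.1% of genes passed both the threshold and 2-fold, and MT1E was the only member tested that did. MT1X was 1.60-fold lower (log2 −0.68, SE 0.12, adjusted p = 1.9e-04) and SLC30A1 was 1.34-fold higher (log2 0.43, SE 0.08, adjusted p = 3.0e-04). Differences at least as large were seen in 40.9% of genes for MT1X and in 58.2% for SLC30A1.

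MT2A differed by −0.05 on the log2 scale (SE 0.06, edgeR adjusted p = 0.444, approximate 95% interval −0.17 to 0.06), and MTF1 by −0.09 (SE 0.08, adjusted p = 0.351, −0.25 to 0.07). The sign of both turned with library size alone as the scaling, which moves all cell-line differences by 0.17, to 0.12 for MT2A and 0.08 for MTF1. MT2A also depended on the library left out: without HCC-LM3 sh-WDR4-2 the difference was 0.06, and without HCC-LM3 sh-NC it was −0.16 with an edgeR adjusted p of 0.0092. Those fits have no label block, and their single HCC-LM3 library is assumed to vary like the Huh-7 pair; with all 4 libraries and no block the difference was −0.05 (adjusted p = 0.568). The median absolute log2 difference was 0.43 over the 5 members and 0.53 over all genes tested. The 6 metallothioneins summed were lower in HCC-LM3 cells by 0.40 on the log2 scale (a difference of −0.40, SE 0.06, edgeR adjusted p = 4.6e-05), from 125 and 142 CPM in HCC-LM3 libraries against 175 and 178 CPM in Huh-7 libraries. The MT1E difference held between libraries of the same label. Huh-7 was 5.56-fold higher than HCC-LM3 between the sh-NC libraries and 7.06-fold higher between those labelled sh-WDR4-2.

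**Figure D4:**
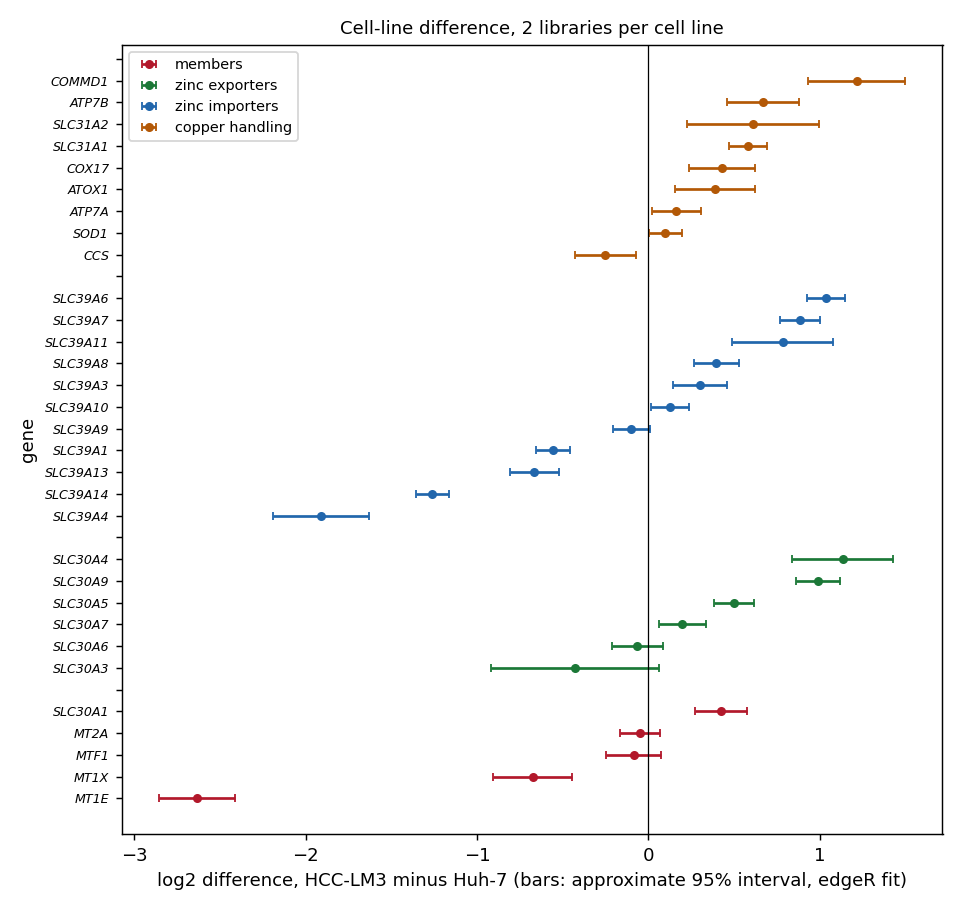
Log2 difference between HCC-LM3 and Huh-7 cells for the members, the other zinc exporters, the zinc importers and the copper handling genes that passed the filter; points are edgeR estimates from 2 libraries per line and bars are approximate 95% intervals. MT1E, at −2.63, lies furthest from 0, SLC30A1 and most exporters and copper genes lie to the right, and the importers lie on both sides.

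Other genes of metal handling also differed between the lines, in numbers to be read against 77.4% of all genes. Of the other zinc exporters, 6 of 9 were tested, and 4 were called higher in HCC-LM3 cells and 0 lower, with a median log2 difference of 0.35. SLC30A4, a vesicular zinc transporter, had a log2 difference of 1.13 (edgeR adjusted p = 2.1e-05), and SLC30A9 of 0.99 (4.8e-08). SLC30A5, which loads zinc into the secretory pathway, differed by 0.50 (7.6e-06), whereas SLC30A3 differed by −0.43 with an adjusted p of 0.134. Of the zinc importers, 11 of 14 were tested, and 5 were higher and 4 lower in HCC-LM3 cells. SLC39A14, an importer of the liver that also carries iron and manganese, had a log2 difference of −1.26 (2.6e-10) and SLC39A4, the intestinal importer, of −1.91 (1.2e-07). SLC39A6 and SLC39A7, the latter a releaser of zinc from the endoplasmic reticulum, differed by 1.04 (7.6e-09) and 0.88 (4.6e-08). Of the copper genes, 9 of 10 were tested, and 6 were higher and 1, CCS, lower in HCC-LM3 cells. COMMD1, which takes part in copper export, differed by 1.21 (7.9e-06), ATP7B, the copper pump of the liver, by 0.67 (1.0e-04), and the importers SLC31A2 and SLC31A1 by 0.61 (0.0134) and 0.58 (1.5e-06).

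Glucocorticoid response and stress genes were read as 2 further lists. Their counts, too, are to be read against the 77.4% of all genes called, 40.3% higher and 37.1% lower in HCC-LM3 cells. Of the glucocorticoid response genes, 8 of 9 were tested, and 5 were higher and 3 lower in HCC-LM3 cells. PER1 differed by 1.42 on the log2 scale (edgeR adjusted p = 1.2e-09), TSC22D3 by 1.41 (2.1e-09) and DUSP1 by 1.35 (8.5e-11), whereas ERRFI1 differed by −3.95 (2.1e-07), KLF9 by −0.99 (1.7e-07) and SGK1 by −0.26 (8.8e-04). Their part in the metallothionein differences was not tested. Of the heat and metal stress genes, 8 of 9 were tested, and 4 were higher and 3 lower in HCC-LM3 cells. The heat shock genes HSPA1B and HSPA1A differed by 1.61 (2.2e-09) and 0.90 (1.4e-06), HSPB1 by −1.06 (2.5e-07) and BAG3 by 0.74 (3.7e-06). HMOX1, the heme oxygenase induced by cadmium, differed by −0.56 (0.0010).

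Against the shRNA label the members moved little. Within a cell line there was 1 library per label, so no replicate check and no p-value are possible, and folds are on the log2(CPM + 0.5) scale with counting intervals. Of the members, 5 passed the filter in each line and 0 were past 2-fold in either. Past 2-fold were 0.268% of 12697 genes in HCC-LM3 cells and 0.109% of 11967 genes in Huh-7 cells, so few genes of any kind passed. In HCC-LM3 cells, MT2A had a log2 fold of −0.22 (counting interval −0.29 to −0.16), MT1E of −0.23 (−0.53 to 0.02) and SLC30A1 of −0.16 (−0.24 to −0.08). MT1X had 0.15 (−0.04 to 0.36) and MTF1 0.03 (−0.09 to 0.15). Of all genes compared, 8.26% had a fold at or below that of MT2A, which is close to the 8.39% for WDR4 itself. Counting either direction, 18.9% of genes lay at least as far from 0 as MT2A. The summed metallothioneins had a log2 fold of −0.18 (−0.24 to −0.13). MT1F, under the filter, had 1.78 times the normalized level of sh-NC, with a log2 counting interval of 0.10 to 1.58.

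In Huh-7 cells, where WDR4 counts did not differ detectably, folds were smaller. MT2A had a log2 fold of −0.07 (−0.13 to −0.01), MT1E of 0.09 (−0.01 to 0.20), MT1X of 0.02 (−0.14 to 0.18) and MTF1 of −0.02 (−0.14 to 0.10). SLC30A1 had 0.11 (0.01 to 0.20), with a counting interval on the other side of 0 from that in HCC-LM3 cells. A fold at least as far from 0 was seen in 30.8% of genes compared in HCC-LM3 cells and in 32.8% in Huh-7 cells. The sum of metallothioneins had −0.03 (−0.08 to 0.03). The median over the 5 members was −0.16 for HCC-LM3 and 0.02 for Huh-7, and over all genes compared it was 0.00 in both, with a standard deviation over genes of 0.21 and 0.17.

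**Figure D5:**
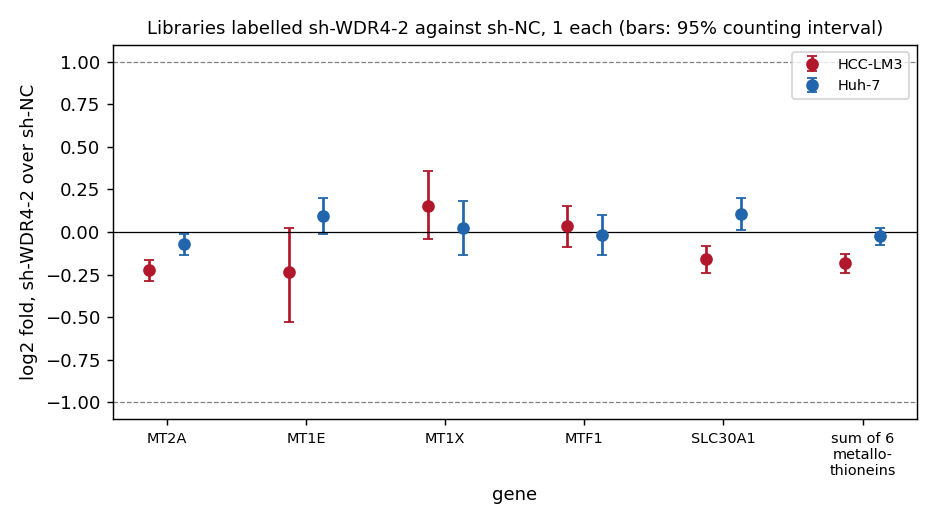
Log2 fold of the library labelled sh-WDR4-2 over sh-NC in each cell line, 1 library each, for the 5 members above the filter and the summed metallothioneins; bars are 95% counting intervals and dashed lines mark 2-fold. All points lie well inside 2-fold, MT2A is below 0 in both lines, and SLC30A1 is on opposite sides of 0.

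In the edgeR test over both lines, blocked on cell line, 0 of the 5 members passed an adjusted p of 0.05, against 0.00787% of 12712 genes, a single gene. DESeq2 also called 0 members. At an unadjusted p under 0.05 there was 1 member, MT2A, among 4.67% of all genes. MT2A had a log2 difference of −0.15 (SE 0.06, unadjusted p = 0.0279, adjusted p = 0.964) and was lower in the library labelled sh-WDR4-2 in both lines, from 123 CPM on average to 111 CPM. MT1X differed by 0.09, MT1E and SLC30A1 by −0.03 and MTF1 by 0.01 on the log2 scale, with SE of 0.08 to 0.12. The lone residual degree of freedom and the unlike folds of the cell lines limit this test.

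Lane and hypoxia genes also moved with the label in HCC-LM3 cells. HCC-LM3 sh-WDR4-2 was sequenced on lane 4 and the other 3 libraries on lane 3, so lane and label cannot be told apart there. All 12 hypoxia genes were higher in it than in sh-NC, with a summed level of 1721 against 842 CPM. Their median log2 fold was 0.97, and 6 of them were past 2-fold, against 0.268% of all genes compared. In Huh-7 cells the sums were 2567 and 2610 CPM, and 0 hypoxia genes were past 2-fold, against 0.109% of all genes. The leading gene was CA9, a carbonic anhydrase, at 50.01 against 14.2 CPM, followed by NDRG1 at 658 against 247, PFKFB4 at 58.0 against 22.0, EGLN3 at 54.2 against 22.8, BNIP3 at 161 against 69.5 and ENO2 at 39.1 against 16.9 CPM. Between the cell lines, 2 of the 12 hypoxia genes passed the edgeR test, against 77.4% of all genes. EGLN3 was higher in HCC-LM3 cells (log2 2.76, adjusted p = 0.0117) and ADM lower (log2 −1.68, adjusted p = 4.5e-04). Without passing, ENO2 differed by −2.61 (SE 0.61, edgeR adjusted p = 0.140), CA9 by 1.93 (SE 0.79, 0.234) and BNIP3 by −0.19 (SE 0.53, 0.798). Label folds that differ between the lines, as for these genes, enter the residual spread of this test. A hypoxia gene that did not pass is therefore not shown to be alike in both lines. MT2A and the metallothionein sum were lower in HCC-LM3 sh-WDR4-2 than in sh-NC, and the part of hypoxia genes in that was not tested. Of the 8 heat and metal stress genes compared, 7 were lower in HCC-LM3 sh-WDR4-2 than in sh-NC and 0 were lower in Huh-7 sh-WDR4-2. Their median log2 folds were −0.20 and 0.08, against −0.005 and −0.001 over all genes compared. No gene of the list was past 2-fold. Among the zinc exporters, zinc importers, copper genes and glucocorticoid response genes, 0 were past 2-fold in either line.

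The genes most like the metallothionein sum over the 4 libraries, by root mean square distance of centred log2(CPM + 0.5), were PTGES2 (0.0105), CISD3 (0.0109) and YDJC (0.0137) of 12701 genes ranked. PTGES2, a prostaglandin E synthase, had 105 and 118 CPM in HCC-LM3 sh-WDR4-2 and sh-NC and 147 and 150 CPM in the Huh-7 ones. With 4 libraries many genes come close to any pattern, and nothing of shared function or control follows from the likeness.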

How the data were processed

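RNA was sequenced from 4 libraries, 1 per cell line and shRNA label. The deposited table holds, per gene symbol, raw read counts as whole numbers, and FPKM that the authors derived from count, library total and a gene length. The kit is TruSeq per the labels and VAHTS mRNA-seq v2 per the study's methods. The submitters' processing notes list Bowtie 0.12.2, mm8 and mm9, with no role given; read counter and human build are not stated in those notes or in the study's methods. How the authors treated reads that fit several metallothioneins is also not given.

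TMM factors from edgeR 4.0.16 (R 4.3.3), which were 1.06 for both HCC-LM3 libraries and 0.942 and 0.944 for the Huh-7 ones, scaled the counts. Genes whose mean over the 4 libraries reached 1 CPM were tested by edgeR's robust quasi-likelihood test, with the shRNA or the cell line as a block and Benjamini-Hochberg adjustment over all genes; the script was tested on simulated data. Within a cell line, log2(CPM + 0.5) was compared at 2-fold with exact 95% counting intervals, which cover counting error only. In place of 0, 3 counts were taken as the limit of detection (0.0697 to 0.0948 CPM). Alternatives were DESeq2 1.42.0 and its size factors, library size only, no filter or 10 CPM, other pseudocounts (0.1 or 1), a 1.5-fold threshold, FPKM ratios, summed genes and each library left out. Intervals were computed with scipy 1.17.1 in Python 3.11.15.

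Members and gene lists were chosen with earlier results of these data known. Named were all members, WDR4, other metallothioneins, genes of the lists past 2-fold within a line, up to 4 genes per list with the largest cell-line difference, and the 3 genes most like the metallothionein sum; HMOX1, CCS, ADM, KLF9, SGK1 and the marker genes were named besides, after their values were seen. Coordinates are from GENCODE release 29 on GRCh38. A marker gene of the lists is not reported here.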

Additional observations from a re-analysis of the deposited data

Results flagged for a closer look

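SLC30A1 had a log2 fold of the library labelled sh-WDR4-2 over sh-NC of −0.16 in HCC-LM3 cells and of 0.11 in Huh-7 cells, a difference of −0.26 between the lines. It is listed because the counting intervals lie on opposite sides of 0; 30.8% of genes in HCC-LM3 cells and 32.8% in Huh-7 cells had a fold at least as far from 0. With 1 library per label in each line, the difference itself was not tested.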

How the results depend on the processing

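The number of members called or past the fold threshold in the 4 comparisons stayed within 1.5 times the reported number under all 32 alternatives run. MT1E, MT1X, SLC30A1 and the metallothionein sum kept direction and call between the cell lines in every alternative, with MT1E at −2.77 to −2.46. With library size only, MT2A turned to 0.1197 and MTF1 to 0.0848. MT2A turned to 0.0595 without HCC-LM3 sh-WDR4-2 and passed the threshold at −0.165 without HCC-LM3 sh-NC. Fits without a library also drop the label block, and a lone library is assumed to vary like the pair of the other line. Under library size only, 62.8% of all cell-line calls were higher in HCC-LM3 cells, against 52.0%. Without the replicate block, the common MT1E difference turned to 0.0462 (SE 1.38), and the block changed no call of a member. The block is the cell line or the label, which the design gives. MT1F entered the cell-line test only without a filter, and was then called; its fitted fold depends on the prior count. Leaving out a library was not possible for the shRNA comparisons, which would lose a label in 1 line. Depth limits MT1F, MT1G and MT1M, and the lack of replicates limits every shRNA fold.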
